A study of Mus musculus with 9 samples.

Results

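Complement is a cascade of blood and tissue proteins that tags cells and debris for removal. It starts from C1q bound to a target, from lectins bound to sugars, or from the spontaneous turnover of C3, and these routes join where C3 is cleaved. Its fragments call in and activate white blood cells through receptors, and inhibitors on the surface of host cells and in the fluid around them keep it in check. In nervous tissue C1q comes largely from macrophages and their relatives.

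The genes described here are 9 complement genes: C1qa, C1qb and C1qc (the C1q chains), C3, Cfb, the receptors C3ar1 and C5ar1, and the inhibitors Serping1 and Cd55. All 13 probes that the array files name for these genes, out of 41174 probes, were taken, whatever their values. The tissue was lumbar dorsal root ganglion (DRG), which holds the cell bodies of the sensory neurons that send axons into the sciatic nerve, from adult mice. In the injured group (5 samples, injured 1 to 5) the sciatic nerve had been transected. The uninjured group (4 samples, uninjured 1 to 4) is the one labelled control. All 9 samples carried the labels cre.neg and jun.wt, the strain was not given, and the labels and the study's methods put the injury 3 days before collection, whereas its results text gives an earlier time. The labels name L3/L4 ganglia, and the design text names L4. The study's methods name ganglia of the opposite, uninjured side as controls for its PCR, immunoblot and tissue staining after nerve crush, and do not say this of the arrays. The labels do not identify animals, so that p-values measure the spread between these samples.

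Each sample, labelled with Cy5, was hybridised against a universal mouse reference RNA labelled with Cy3, with no dye swap. Values are log2 ratios of sample over reference, so that a negative ratio means only less signal than in the reference. The level of the ratio of a probe was compared between groups and never with that of another probe. Only its course over the arrays was set beside that of other probes, by Pearson's r. The median Cy5 signal lay between 156 and 238 on the 9 arrays, and 71.0% to 78.9% of spots were well above background. Injured 5 was the lowest by both measures. It also had the lowest weight when limma weighted the arrays (0.349) and was the least like its own group (highest r 0.976). The ratios of the C1q chains, Cfb and Serping1 were highest on this array, and those of the called Cd55 probes lowest. The arrays lay on 3 slides: uninjured 2, 3 and 4 on slide 1, uninjured 1 with injured 1, 2 and 5 on slide 2, and injured 3 and 4 on slide 3. Slide and injury therefore overlap in large part. The 7 genes of the nerve injury list, Atf3 and Gal among them, were all higher in injured DRG, and the mean of that list lay between −0.16 and 0.20 on uninjured and between 3.12 and 3.41 on injured arrays, relative to the uninjured mean, so that the labels of all 9 arrays matched it. Of the 10 sensory neuron markers tested 2 were lower and 8 were not called. Those lower were Scn9a (log2 difference −0.54) and Isl1 (−0.49), each with all injured arrays below all uninjured arrays. Among those not called, the ratio of Nefh, a neurofilament of large neurons, averaged 6.60 over the uninjured arrays (SD 0.0675) and 6.57 over the injured arrays (SD 0.221).

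Of the 13 complement probes, 10 passed the filter for signal (Cy5 well above background on at least 4 arrays). Among these, 4 passed the test in limma at an adjusted p under 0.05, in 2 genes: both probes of C3 were higher in injured DRG, and 2 probes of Cd55 were lower. These same 4 probes were those whose groups of arrays did not overlap. Across all 31186 probes tested, 23.5% were called, 10.5% higher and 13.0% lower, and 22.6% had groups that did not overlap (10.1% with all injured arrays above, 12.5% with all below). The median log2 difference was 0.39 over the 10 complement probes and −0.0045 over all probes tested.

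**Figure D1:**
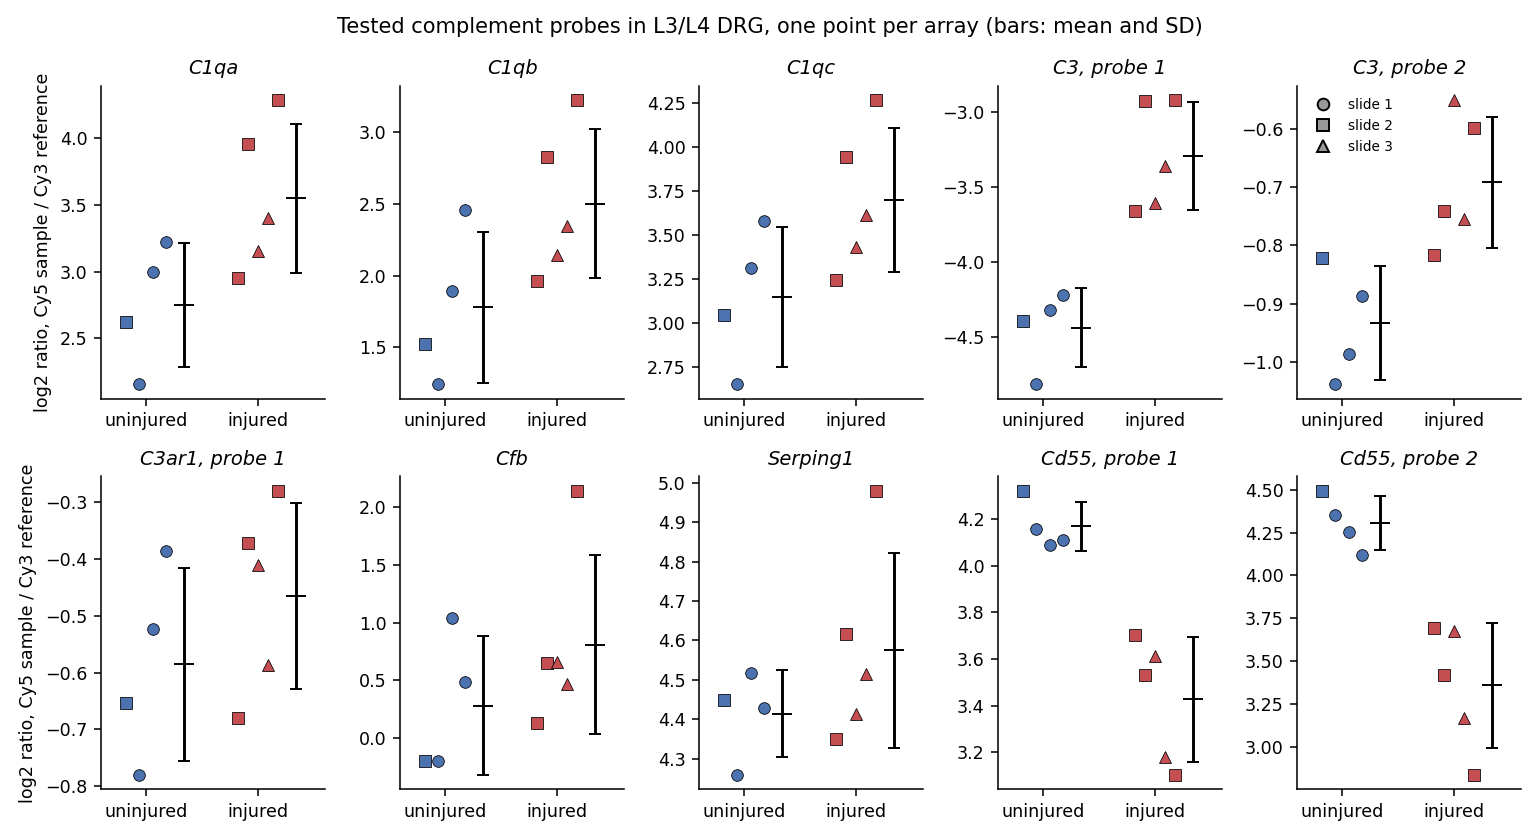
Log2 ratio of Cy5 sample over Cy3 reference (y axis) for the 10 tested complement probes on each of the 9 arrays, uninjured in blue and injured in red, with the slide as the symbol and the mean and SD as bars. The groups are apart for C3 (injured above) and for both Cd55 probes (injured below) and overlap for the C1q chains, C3ar1, Cfb and Serping1.

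The sequences of the probes were not in the sources used here. The promoters of 6 of the 9 genes were in the RefSeq table (build GRCm38.p6), which held none for C1qa, Cfb and Serping1. Shown are the 250 bases before the start of C1qb and C1qc, whose ratios moved together over the arrays, and of C3, the gene with the largest rise among the 9. Capitals mark matches, on either strand, to AGGAAGT, the core that PU.1 and other ETS factors of macrophages bind, or to TTGCGNAA, a form of the site of C/EBP factors. The promoter of C1qb lies at chr4:136886201-136886450, that of C1qc at chr4:136892915-136893164 and that of C3 at chr17:57228137-57228386, all on the minus strand, and each is written in the direction of the gene.
C1qb: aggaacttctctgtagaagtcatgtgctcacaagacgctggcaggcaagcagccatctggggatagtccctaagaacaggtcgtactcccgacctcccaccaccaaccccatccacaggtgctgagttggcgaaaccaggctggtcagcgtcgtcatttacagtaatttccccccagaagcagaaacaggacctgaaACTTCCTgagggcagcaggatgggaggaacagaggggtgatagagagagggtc
C1qc: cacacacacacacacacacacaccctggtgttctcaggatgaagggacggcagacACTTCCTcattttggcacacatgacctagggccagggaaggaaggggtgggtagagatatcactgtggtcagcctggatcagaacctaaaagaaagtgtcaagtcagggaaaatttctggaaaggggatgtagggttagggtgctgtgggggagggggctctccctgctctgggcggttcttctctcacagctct
C3: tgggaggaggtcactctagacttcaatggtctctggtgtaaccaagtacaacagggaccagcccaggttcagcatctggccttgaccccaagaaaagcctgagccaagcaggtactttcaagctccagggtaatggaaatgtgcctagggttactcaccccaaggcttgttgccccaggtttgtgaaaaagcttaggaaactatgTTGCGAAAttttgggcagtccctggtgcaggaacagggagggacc
C1qb and C1qc each held 1 match to AGGAAGT, both read as ACTTCCT on the strand of the gene, which ended 47 and 189 bases before the start. The C/EBP letters were matched once in C3, with the last base 38 bases before the start. Of the other promoters, C5ar1 held 2 matches to AGGAAGT, and C3ar1 and Cd55 held neither set of letters. Across 32851 mouse promoters of the same length, 7.69% held AGGAAGT and 0.670% held TTGCGNAA. The letters were chosen after the sequences were seen, the motifs share no position here, and a match is a description of the sequence only.

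C3, the protein at which all routes of complement meet, was 2.21-fold higher in injured DRG. Its main probe (NM_009778, at chr17:55414567-55414626 on build mm7, the build of the files) was present as 10 spots on each array. The log2 ratio was −4.40, −4.82, −4.32 and −4.22 on uninjured arrays 1 to 4 and −3.66, −2.92, −3.61, −3.36 and −2.92 on injured arrays 1 to 5. All injured arrays lay above all uninjured arrays, with injured 2 and 5 the highest and uninjured 2 the lowest. The uninjured mean was −4.44 ± 0.263 (SD, n = 4) and the injured mean −3.29 ± 0.359 (SD, n = 5). This is a log2 difference of 1.15 (limma, standard error 0.181, 95% interval 0.75 to 1.55, adjusted p = 0.00113). In the exact permutation test (two-sided) p was 0.00794, the smallest that the 126 splits of the arrays allow. The SD between the 10 spots of an array was at most 0.0451, below the SD between arrays of a group. In the reference channel C3 was bright on every array, between 23437 and 30898, and was not saturated. With the Cy5 channel taken alone the difference was 1.13.

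The other C3 probe, which the files place over 55435522 to 55435679 on chromosome 17, was dim. It was well above background on 3 of 4 uninjured and 2 of 5 injured arrays. Its ratio lay between −1.04 and −0.82 on uninjured and between −0.82 and −0.55 on injured arrays, so that the groups only just did not overlap, and the log2 difference was 0.24 (standard error 0.0748, adjusted p = 0.0390). The call for this probe did not hold in 15 of 21 other settings, and its difference ranged from 0.10 to 0.53. On the shared slide the C3 main probe was at −4.40 in the single uninjured sample and at −3.17 on average in 3 injured samples, each of them above it. A model with slide as a fixed block, in which this slide alone carries the contrast, gave 1.23 (adjusted p = 0.0675).

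Cfb encodes factor B, which joins cleaved C3 to form the convertase of the alternative pathway. Its ratio (NM_008198) was −0.20, −0.20, 1.04 and 0.48 in the uninjured samples and 0.13, 0.65, 0.66, 0.47 and 2.14 in the injured samples. The groups overlapped, and injured 5 stood above the rest. The log2 difference was 0.53 (standard error 0.385, 95% interval −0.32 to 1.38, adjusted p = 0.366), and without injured 5 it was 0.20. Cfb thus did not pass the test, and the interval spans from a fold of 0.800 to 2.60.

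The C1q chains, which together form the molecule that opens the classical pathway, are encoded side by side on chromosome 4, where their probes lie within 15891 bases (136259100 to 136274990 on build mm7). All of them had higher means in injured DRG, by 1.47-fold to 1.74-fold, and none passed the test across all probes. C1qa (NM_007572) was at 2.62, 2.16, 3.00 and 3.22 in uninjured samples 1 to 4 and at 2.95, 3.95, 3.16, 3.40 and 4.28 in injured samples 1 to 5. Injured 5 and injured 2 were the highest and uninjured 2 the lowest, and injured 1 and 3 lay within the uninjured range. The log2 difference of C1qa was 0.80 (standard error 0.286, adjusted p = 0.0673), with a 95% interval, not adjusted for the number of probes, of 0.17 to 1.43.

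For C1qb (NM_009777) the uninjured samples were at 1.52, 1.24, 1.89 and 2.46 and the injured samples at 1.96, 2.83, 2.14, 2.35 and 3.23, a log2 difference of 0.72 (standard error 0.287, adjusted p = 0.0957). C1qc (NM_007574, which older annotation calls C1qg) was at 3.05, 2.65, 3.31 and 3.58 in uninjured and at 3.24, 3.94, 3.43, 3.61 and 4.27 in injured samples, a log2 difference of 0.55 (standard error 0.224, adjusted p = 0.103). The order of the arrays was nearly that of C1qa for both. In the exact permutation test (two-sided, unadjusted) p was 0.0794 for C1qa and 0.0952 for C1qb and for C1qc. The chains followed each other closely: across the 9 arrays Pearson's r was 0.984 for C1qa with C1qb, 0.995 for C1qa with C1qc and 0.991 for C1qb with C1qc, and with the group means removed it was 0.976 to 0.994. These points share their RNA and their array, and the r is a description.

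The call for C1q depended on the channel. With the Cy5 signal alone, without the reference, the log2 differences were 1.01 for C1qa (adjusted p = 0.0423), 1.01 for C1qb (adjusted p = 0.00562) and 0.94 for C1qc (adjusted p = 0.0477), all past the threshold. The reference signal of C1qa lay between 62.8 and 92.5 and was well above background on all 9 arrays. That of C1qb was 95.8 on uninjured 4, against 137.6 to 185.6 on the other arrays, and that of C1qc lay between 87.8 and 189.2. C1qa and C1qc were lowest on uninjured 2 and highest on injured 2 in both channels. The Cy5 signal of C1qb lay between 668 and 1024 on uninjured and between 1214 and 2064 on injured arrays. The cause of the spread in the reference was not tested. Slide as a random block also put all chains past the threshold (adjusted p = 0.0225, 0.0418 and 0.0387), while slide as a fixed block gave larger differences of 1.11, 1.15 and 0.77 with adjusted p = 0.271, 0.248 and 0.339. By Agilent's own ratio the differences were 0.53, 0.66 and 0.39, and none passed (adjusted p = 0.160, 0.261 and 0.189). On the shared slide all 3 injured samples were above the uninjured sample for each chain. Leaving out injured 1 brought C1qa past the threshold (0.95, adjusted p = 0.0343) and leaving out uninjured 4 did so for C1qb (0.95, adjusted p = 0.0379). Without injured 5 the differences fell to 0.62, 0.54 and 0.41 for C1qa, C1qb and C1qc. Without uninjured 2 they fell to 0.60, 0.55 and 0.39. None of these passed in limma (adjusted p from 0.108 to 0.252).

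**Figure D2:**
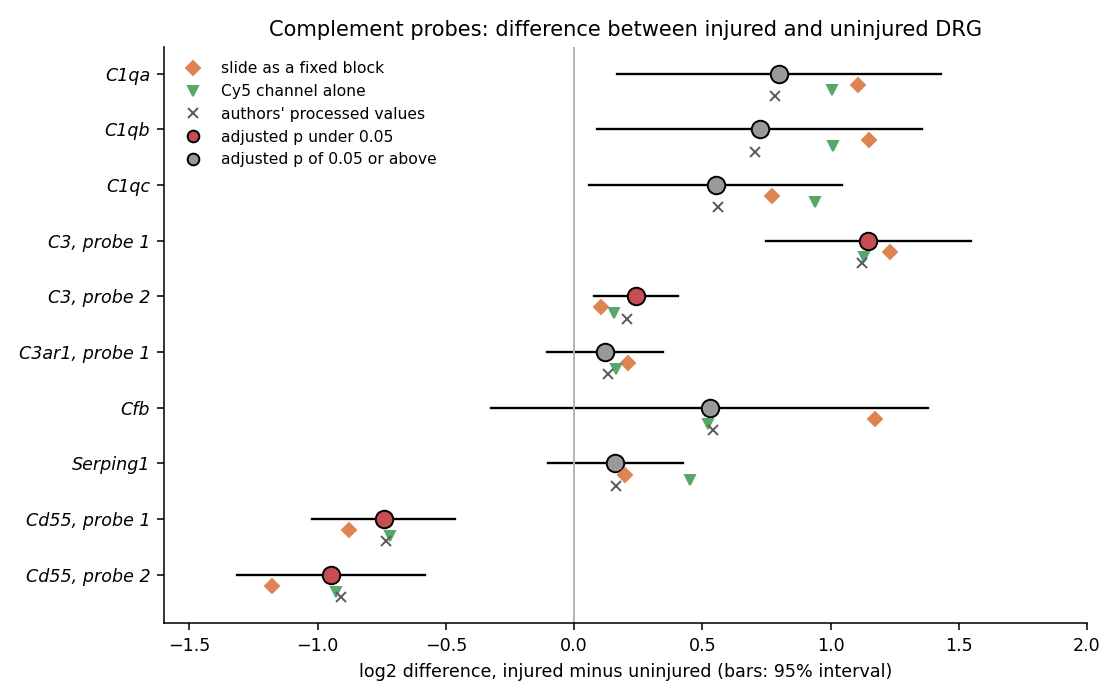
Log2 difference, injured minus uninjured (x axis), of each tested complement probe, with the 95% interval as a bar and the adjusted p by the colour of the circle. Small symbols give the difference with slide as a fixed block, in the Cy5 channel alone and from the authors' processed values. The called probes are those of C3 (1.15 and 0.24) and Cd55 (−0.74 and −0.95), and C1qa, C1qb and C1qc lie farther to the right in the Cy5 channel alone and with the block.

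The genes whose ratio was most like the mean of the C1q chains, by Pearson's r over the 9 arrays and out of 16463 named genes, were Dok2 (r = 0.989), Cd68, Rpl36, Nhp2, Bst1, Rps27, Ifitm2, Fcer1g, Fcgr3 and Nckap1l (r = 0.974). Cd68 is a lysosomal protein of macrophages, Fcer1g and Fcgr3 are chains of receptors for antibody, and Rpl36 and Rps27 are ribosomal proteins. Of these, Dok2 rose by 0.57 (adjusted p = 0.0458), Fcer1g by 0.66 (adjusted p = 0.0461) and Nckap1l by 0.57 (adjusted p = 0.0410). By the brightest probe of each gene the rest were not called, with differences from 0.06 (Nhp2) to 0.70 (Fcgr3). Among the other complement genes described here, C3 ranked 348th by this measure (r = 0.891), C3ar1 was at r = 0.882, Serping1 at 0.861 and Cfb at 0.814, and Cd55 had the opposite sign at −0.772.

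Macrophage markers moved with the C1q chains. Of 18 markers, all tested, Aif1 (0.90), Cd14 (0.83) and Fcer1g (0.66) were higher in injured DRG and 14 were not called. The median difference of the list was 0.55. The mean of the list, relative to the uninjured mean, lay between −0.40 and 0.28 on uninjured arrays and between −0.01 and 1.00 on injured arrays, lowest on uninjured 2 and highest on injured 2 and 5, as for C1q. Its r with the mean of the C1q chains was 0.957 over 9 arrays, and 0.933 with the group means removed. The fibroblast, endothelial and satellite glia lists were also lowest on uninjured 2 (−0.61, −0.24 and −0.12) and highest on injured 2 and 5. These lists were at 0.58, 0.25 and 0.20 on injured 2 and at 0.83, 0.58 and 0.36 on injured 5. The r with C1q was computed for the macrophage list alone. It therefore does not show that C1q followed macrophage markers more closely than those of these other cells. The part of the number of macrophages in the C1q, C3 and Cfb values was not tested. In ganglion RNA a change in the number of cells of a type and a change in RNA per cell cannot be told apart.

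**Figure D3:**
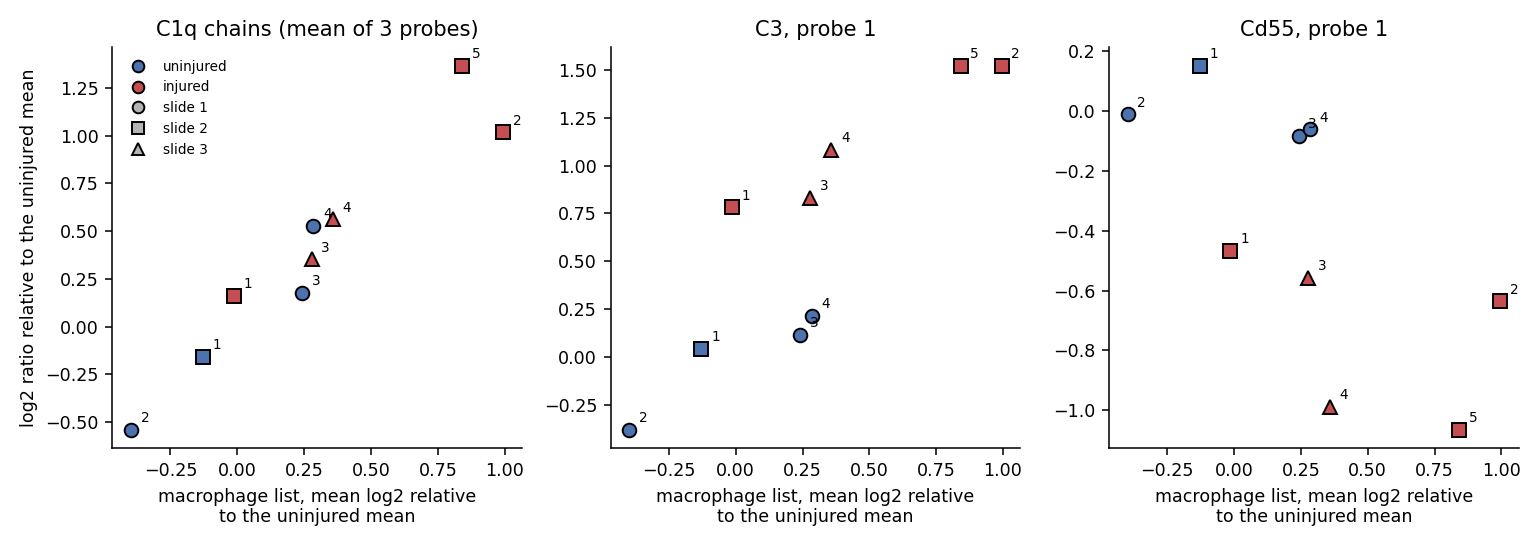
Mean level of the 18 macrophage markers on each of the 9 arrays (x axis, log2 relative to the uninjured mean) against the C1q chains, the main C3 probe and the brighter Cd55 probe (y axes, log2 relative to the uninjured mean). Colour gives the group, the symbol the slide and the number the replicate; the groups overlap on both axes for C1q, whereas for C3 and Cd55 they are apart on the y axis.

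The main C3 probe also followed the macrophage list, with an r of 0.871 over the 9 arrays and of 0.954 with the group means removed. Injured 1, where the macrophage list was at −0.01, and injured 3, where it was at 0.28, lay within the uninjured range of that list, while the C3 ratio was −3.66 and −3.61 there, above the highest uninjured value of −4.22. Markers of some other cells were high on several injured arrays, with 0 called in limma. The mean of the 8 neutrophil markers (5 at an unadjusted p under 0.05) was at 2.92 on injured 2, 1.42 on injured 4 and at most 0.53 on injured 1, 3 and 5, against at most 0.50 on uninjured arrays. The mean of the 4 red blood cell markers (3 at an unadjusted p under 0.05) was at 1.57 on injured 2, 1.11 on injured 5 and 0.68 on injured 4, against at most 0.31 on uninjured arrays. That of the 8 muscle markers (1 at an unadjusted p under 0.05) was at 3.40 on injured 4, 2.09 on injured 2 and 0.34 on injured 5, against at most 0.09 on uninjured arrays. The groups overlapped for the means of the 7 fibroblast, 9 lymphocyte, 7 endothelial and 7 myelinating Schwann cell markers (0, 0, 2 and 2 at an unadjusted p under 0.05, and 0 called). Of 7 satellite glia markers, Glul (0.78) and Slc1a3 (0.22) were higher, and a further probe of Slc1a3 (0.0022) was not called. The part of these cells in the complement values was not tested. Without injured 2 the C3 difference stayed called, as it did without each of the 9 arrays in turn, where it lay between 1.02 and 1.24 (highest adjusted p = 0.00455).

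No change was called for C3ar1 or C5ar1, and some of their probes were too dim to test. C3ar1, the receptor for C3a, had a probe (NM_009779) that was above background on all arrays, with ratios of −0.78 to −0.39 in uninjured and −0.68 to −0.28 in injured DRG. These ranges overlapped, and the log2 difference was 0.12 (standard error 0.102, 95% interval −0.11 to 0.35, adjusted p = 0.446). Its other probe was not well above background in Cy5 on any array and was not tested. C5ar1 (NM_007577), the receptor for C5a, was not tested either, since it was above background in uninjured 4 alone, at a Cy5 signal of 114 against 59.0 to 69.8 on the other 8 arrays. Neither a rise nor a fall of C5ar1 was detectable with these probes.

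Serping1 encodes the C1 inhibitor, a serpin that blocks the proteases C1r and C1s. Its ratio (NM_009776) was 4.45, 4.26, 4.52 and 4.43 in uninjured and 4.35, 4.62, 4.41, 4.51 and 4.98 in injured samples, overlapping but for injured 2 and 5. The log2 difference of 0.16 (standard error 0.119, adjusted p = 0.373) did not pass the test and its 95% interval, −0.10 to 0.42, leaves out folds above 1.34. In the Cy5 channel alone the difference was 0.45 (adjusted p = 0.0359), and without injured 5 it was 0.06.

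Cd55, or decay-accelerating factor, is a membrane-anchored protein that speeds the breakdown of C3 convertases on the cell that carries it. It was 1.67-fold lower in injured DRG by the brighter probe and 1.93-fold lower by the other. The brighter probe (NM_010016, spread over chr1:130344430-130352416 on build mm7) was at 4.32, 4.16, 4.09 and 4.11 in the uninjured samples and at 3.70, 3.53, 3.61, 3.18 and 3.10 in the injured samples. Every injured sample was below every uninjured one, and injured 4 and 5 were the lowest. The uninjured mean was 4.17 ± 0.106 (SD, n = 4) and the injured mean 3.43 ± 0.268 (SD, n = 5). The log2 difference was −0.74 (limma, standard error 0.126, 95% interval −1.02 to −0.46, adjusted p = 0.00177).

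The other Cd55 probe (AK030285, at 130351505 to 130351564) was at 4.49, 4.35, 4.25 and 4.12 in uninjured and at 3.70, 3.42, 3.68, 3.17 and 2.84 in injured samples, again with no overlap. Its log2 difference was −0.95 (standard error 0.166, adjusted p = 0.00220). For each of these probes the exact permutation test (two-sided) gave p = 0.00794, and leaving out any array kept the call, with differences from −0.81 to −0.66 and from −1.03 to −0.82. The Cy5 signal itself lay between 2204 and 2986 on uninjured and between 817 and 2046 on injured arrays for the brighter probe. Slide as a fixed block gave −0.88 (adjusted p = 0.0710) and −1.18 (adjusted p = 0.0670), and the 3 injured samples of the shared slide were all below its uninjured sample for both. By Agilent's own ratio the dimmer of these probes was at −0.62 and did not pass (adjusted p = 0.0707).

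The remaining Cd55 probe (AF143541, at 130295529 to 130295588) was not well above background on any array in either channel. Its coordinates lie apart from those of the other Cd55 probes and within the span the files give for a probe of Cd55b, a neighbouring and related gene, and which copy it reads was not tested. Cd55b itself did not pass the filter. As a description, the brighter Cd55 probe had an r of −0.692 with the macrophage list over the 9 arrays and of −0.455 with the group means removed.

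Of 54 other complement genes in 5 lists, 53 were on the array, 40 had a tested probe and 11 were called, 9 higher and 2 lower, with the brightest probe of each gene. Across all 20898 genes tested this way 24.9% were called, 11.2% higher and 13.7% lower. The median log2 difference of the 40 genes was 0.21, against 0.0011 over all genes tested. With slide as a fixed block 3 of the calls were left, those of C4b, Colec10 and Csmd3. In the classical and lectin pathway 2 of 13 tested genes were higher. C4b, the component that C1 cleaves, was at 1.84, 1.36, 1.70 and 1.65 in uninjured and at 2.90, 2.70, 2.60, 2.65 and 2.86 in injured samples, with no overlap. It rose by 1.11 (standard error 0.101, adjusted p = 3.19e-05), and its close copy C4a, with which a probe may share target sequence, was at 0.14 and was not called (adjusted p = 0.130). The C4a probe was dim, well above background on 1 of 4 uninjured and 4 of 5 injured arrays, and says little on change. C4b was called in each of the 23 other settings, slide as a fixed block among them.

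Colec10, a collectin that binds sugars, had the largest rise of the lists. It was at −0.66, −0.61, 0.50 and −0.25 in uninjured samples, above background on 2 of 4 arrays, and between 2.36 and 3.17 in injured samples. The log2 difference of 3.10 (standard error 0.249, adjusted p = 1.33e-05) was 4.81 with a background offset of 0 and 5.83 by Agilent's own ratio, so that its size depends on how dim spots are treated. Of the genes not called, C2, a protease of the classical convertase, had the highest Cy5 signal, with a log2 difference of 0.16 (standard error 0.333).

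In the alternative pathway Cfp, or properdin, which holds the convertase together, rose by 0.63 (standard error 0.150, adjusted p = 0.0118), with all injured samples above all uninjured samples. Cfd, or factor D, which cleaves factor B and is made largely by fat cells, varied too widely for a call. It was at 2.16, 0.20, 4.67 and 4.64 in uninjured and at 4.33, 1.81, 3.54, 5.75 and 4.76 in injured samples, a log2 difference of 1.12 (standard error 0.979, adjusted p = 0.459). In the terminal pathway 3 of 7 genes were tested. C8g, a chain of the membrane attack complex, fell by 0.41 (adjusted p = 0.0167; adjusted p = 0.0519 without uninjured 4), and Hc, which encodes C5, was at −0.23 and not called.

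Of 13 tested regulators, Cfi and Cd59a were higher and Csmd3 was lower. Cfi, or factor I, which cuts cleaved C3 and C4, rose by 0.43 (standard error 0.0913, adjusted p = 0.00606). With all spots kept in the background fit its difference was 0.27 and by Agilent's own ratio it was 0.58, and neither was called (adjusted p = 0.266 and 0.197). Cd59a, which blocks the membrane attack complex, rose by 0.23 (adjusted p = 0.0489) by its brighter probe and by 0.37 (adjusted p = 0.00553) by the other, and the first of these calls held in 8 of 23 other settings. Csmd3, a large membrane protein with complement-control domains, was between 1.51 and 1.80 in uninjured and between 0.62 and 0.83 in injured samples. It fell by 0.97 (standard error 0.0745, adjusted p = 9.39e-06) and was called in all 23 other settings. Clu, or clusterin, had the highest Cy5 signal of the regulators not called (0.06), with a direction that turned in some settings.

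Among the receptors 4 of 9 tested genes were higher. Itgam (0.50), Itgax (0.34) and Itgb2 (0.50) encode the integrin chains of complement receptors for cleaved C3, and Cd93 (0.64) a membrane protein first described as a C1q receptor. The adjusted p was 0.0336 for Itgam, 0.0205 for Itgax, 0.0165 for Itgb2 and 0.0107 for Cd93. Itgam was 1.22 with a background offset of 0 and 1.53 by Agilent's own ratio, and its call was lost without uninjured 1, uninjured 2, uninjured 3, injured 3 or injured 4 (highest adjusted p = 0.0919), and that of Itgax without uninjured 2 (adjusted p = 0.0541). Further probes of Itgam (0.20), Itgax (0.06) and Cd93 (0.18) were not called. C1qbp, a mitochondrial protein that can bind C1q, was at −0.17 (adjusted p = 0.0706) and was not called. Its groups only just did not overlap, with the lowest uninjured sample at −1.397 and the highest injured sample at −1.404.

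**Figure D4:**
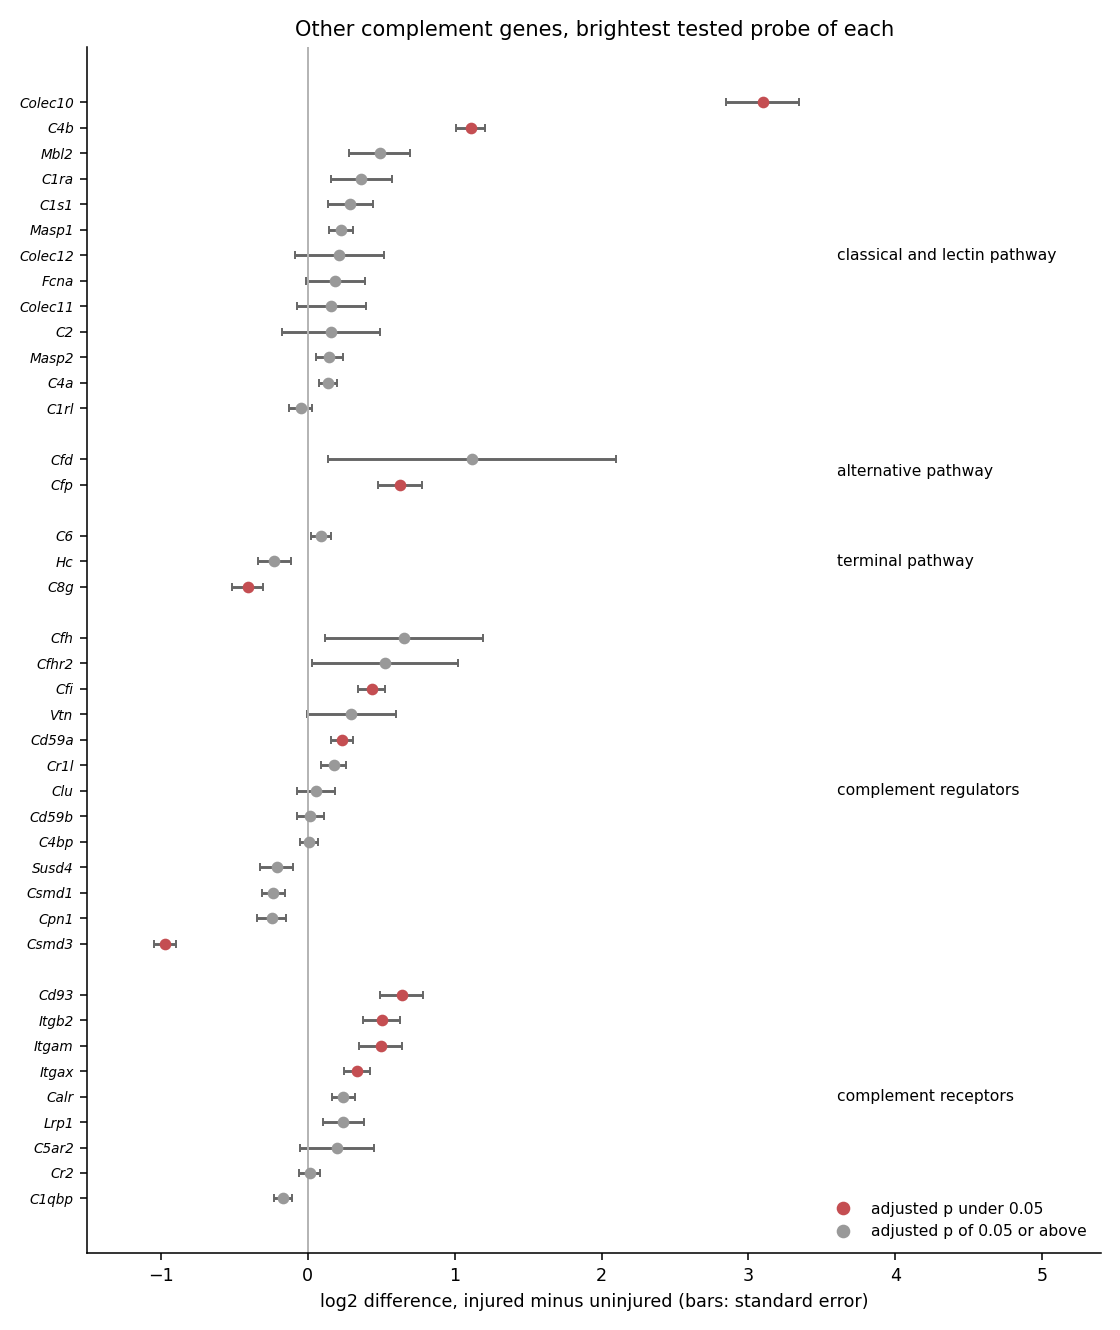
Log2 difference, injured minus uninjured (x axis, bars give the standard error), of the 40 other complement genes with a tested probe, grouped by list, with called genes in red. Colec10 (3.10) and C4b (1.11) lie farthest to the right among the called genes and Csmd3 (−0.97) farthest to the left.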

How the data were processed

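DRG RNA of 9 samples, grouped by their labels, was measured on 2-colour Agilent arrays. The deposited scanner files hold, for each channel, the mean intensity of a spot, the median of its local background and flags from Agilent Feature Extraction. The log10 ratios in the same files are, per the file headers, Agilent's own dye-normalized ratios. The authors also gave a table of log2 ratios (Cy5 over Cy3), for which the sources used here name limma without a version. Their slope against the values computed here was 0.986 to 0.994 on the 9 arrays.

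In R 4.3.3 with limma 3.58.1, control spots and spots with a non-uniform feature or background were left out (2 to 26 per array). The rest were corrected by normexp (offset 50), normalized by loess within arrays and averaged per probe. Probes that reached Cy5 well above background on at least 4 arrays entered limma's lmFit and eBayes, with Benjamini-Hochberg adjustment over all 31186 of them and no covariate. Single probes also had an exact permutation test. Probes were named through RefSeq accession (22951), symbol in the file (6659) or older name (3109), and 8455 kept the name in the file. Other lists used the brightest tested probe of each gene.

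All probes of the 9 genes are reported. Of the other complement genes, those called and the brightest not called in each list are named, and of the macrophage list the called genes, of which 1 is not reported here. The list of likeness to C1q has 10 genes by rule. Nefh, Scn9a, Isl1, C4a, Cd55b, Atf3 and Gal and the further probes of called genes were named after their values were seen. The differences printed for the likeness list were also chosen then. The members, lists and tests were chosen with earlier results of these data known.

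Alternatives were other background corrections and normalizations, Agilent's ratio, the authors' values, Cy5 alone, other filters, the slide as a block, array weights, a trended and robust fit, and leaving out each array. Their values for single genes of the other complement lists, and the promoter motifs, were added after the data were seen. On simulated data with 200 changed probes of 31186, the test recovered 96.0% of log2 changes of size 1 and 65.0% of those of size 0.5, and 6.40% of its calls were unchanged probes. The simulated probes varied independently of each other, and far fewer were changed than the 23.5% called on the arrays. These shares therefore need not hold for the arrays. The number of arrays limits the precision. No gene model of build mm7 was used, so exons are not given. Plots were made in matplotlib 3.10.9 under Python 3.11.15.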

Additional observations from a re-analysis of the deposited data

Results flagged for a closer look

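Of 62 groups of values examined for an array that stands apart, 2 had such an array, where chance gives about 1 in 20. Cfb in injured 5 was at a log2 ratio of 2.14, with 0.66 the next highest injured value, a gap of 0.736 of the range of the group. The mean of the nerve injury list in injured 2 was 3.41 above the uninjured mean, with 3.18 the next highest injured value, a gap of 0.786 of the range.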

How the results depend on the processing

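No paired analysis was possible because replicate numbers and animals are not given. The count of all probes called was 3523 with median centring and 1505 with slide as a fixed block, against 7338, and 55.6% of the calls were higher with that block, against 44.6%. With slide as a random block, where the estimated correlation within slides was −0.202, the count was 10340. Of the complement probes, 4 were called, against 2 by Agilent's own ratio, 2 with the brightest probe of each gene, 7 in the Cy5 channel alone, 7 with slide as a random block and, in limma, 0 with slide as a fixed block (4 at an unadjusted p under 0.05). The last of these rests on a single uninjured array, and none of the 10 tested complement probes changed sign in any setting that tested it. Other complement genes called were 3 with slide as a fixed block, against 11. Leaving out each array gave 5377 to 7481 probes, 3 to 5 complement probes and 9 to 13 other complement genes. The main C3 probe and the brighter Cd55 probe were each called in 22 of 23 settings and the other Cd55 probe in 20 of 22. The direction turned for C2, at −0.083 with array weights and from −0.13 to 0.30 with an array left out. It also turned for Clu, at −0.059 with median centring, −0.024 in Cy5 alone, −0.011 with array weights and from −0.054 to 0.12 with an array left out. Neither gene was called in any of these, and the cause was not tested. Dim probes (C5ar1, a probe each of C3ar1 and Cd55) allow no statement on change.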
